A study of Mus musculus with 10 samples.

Results

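The haemoglobin genes and Alas2 were followed across 10 bulk RNA sequencing libraries of mouse tumour neutrophils. The set holds 5 genes of the 55385 gene rows measured: Hba-a1 and Hba-a2, which encode the alpha chain of adult haemoglobin, Hbb-bs and Hbb-bt, which encode the beta chain, and Alas2, the erythroid form of the first enzyme of haem synthesis. They were chosen by name after an earlier analysis of these same libraries, in which Hba-a1 had a large fold difference between treated and naive Sox2Hi tumours. Their levels and fold differences are therefore given as descriptions, and calls on them support nothing further. All 5 passed the filter on low counts that left 29648 genes for testing.

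The study asked whether Sox2 in squamous cell carcinoma (SCC) stem cells changes how tumour neutrophils respond to interferon. Parental Sox2low control cells or Sox2Hi SCC cells (marked GFP and Sox2 in the library names, all of which also carry C57) were grafted onto CatchupIVM-red mice, a strain whose neutrophils are marked with Tomato through a Cre knocked into Ly6g. Mice with established tumours stayed naive or received anti-PDL1 with a CD40 agonist, and Tomato+ cells were sorted from the tumours. Each graft gave 3 naive libraries and 2 treated libraries. All 4 groups share the host strain, the reporter sort and the tumour graft. The labels used here give no age or sex of the mice, do not say whether Sox2Hi cells are 1 clone, and do not say whether replicates are separate animals, so p-values measure the spread between these libraries, which may be technical. Bulk libraries do not record which cell a read came from: fewer globin-carrying cells and less globin RNA per cell cannot be told apart.

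Haemoglobin is a tetramer of alpha and beta chains, each holding a haem group that binds oxygen. Red cell precursors make it in large amounts, with Gata1 and Klf1 driving the globin genes and Alas2 setting the pace of haem synthesis. Mature mammalian red cells have no nucleus, and young ones keep globin mRNA for a time. Neutrophils are not known for haemoglobin synthesis, but take up and break down haem with other phagocytes.

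Depth ranged from 13815734 to 22986193 counts per library. TMM, edgeR's scaling, gave the control treated pair factors of 0.63 and 0.589, against 0.93 to 1.40 for the rest. Levels are CPM (counts per library scaled to a fixed total) after TMM over all tested genes (all-gene scaling). Folds are also given with factors from genes that averaged 5 CPM or more (expressed-gene scaling). The neutrophil marker list was present in every library. Its 13 genes summed to 2344 to 3359 CPM in control naive, 20832 to 26147 in control treated, 2301 to 4042 in the Sox2Hi naive group and 7304 to 7373 in Sox2Hi treated libraries. Ly6g, the locus that carries the Cre, had 32 to 50, 192 to 246, 38 to 63 and 85 to 162 reads in the same order.

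The promoters are shown because the 4 globin genes move together across libraries and, with Alas2, belong to a gene class with known upstream motifs. Sequences are the 250 bases before the RefSeq start (GRCm38.p6), 5′ to 3′ on the gene's strand, for 1 alpha gene, 1 beta gene and Alas2. They lie at chr11:32296242-32296491 (plus strand), chr7:103827929-103828178 (minus strand) and chrX:150547167-150547416 (plus strand). Capitals mark GATAA, the core bound by GATA factors, and CACCC, the core bound by Klf1-type factors, on either strand (TTATC and GGGTG where they lie on the other one).
Hba-a2: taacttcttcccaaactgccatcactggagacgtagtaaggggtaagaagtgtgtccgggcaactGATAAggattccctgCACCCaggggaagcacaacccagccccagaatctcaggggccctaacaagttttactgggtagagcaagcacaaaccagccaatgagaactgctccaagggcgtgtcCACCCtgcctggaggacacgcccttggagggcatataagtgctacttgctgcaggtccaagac
Hbb-bs: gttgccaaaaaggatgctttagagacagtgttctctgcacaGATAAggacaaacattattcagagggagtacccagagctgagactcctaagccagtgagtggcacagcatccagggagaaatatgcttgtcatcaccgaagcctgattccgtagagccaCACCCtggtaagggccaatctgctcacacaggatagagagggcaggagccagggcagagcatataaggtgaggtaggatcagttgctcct
Alas2: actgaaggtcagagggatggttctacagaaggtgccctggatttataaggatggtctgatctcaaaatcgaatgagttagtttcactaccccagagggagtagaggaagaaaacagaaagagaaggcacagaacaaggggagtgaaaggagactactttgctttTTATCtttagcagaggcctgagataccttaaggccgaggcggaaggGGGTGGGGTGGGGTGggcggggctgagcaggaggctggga

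GATAA occurred 1 time in each of the 5 promoters, starting 185 bases before the start in Hba-a2, 209 in Hbb-bs and 86 in Alas2, where it lies on the opposite strand. CACCC occurred 2 times in Hba-a1 and in Hba-a2, 1 time in Hbb-bs and 3 times in Hbb-bt and in Alas2, where the copies overlap a run of G. Of 32851 mouse promoters of the same length, 22.6% held GATAA, 52% held CACCC and 10.1% held both. A match describes letters and shows no binding. CCAAT, found in 33.8% of promoters, was present in the globin promoters and not in these 250 bases of Alas2. The Hba-a1 and Hba-a2 promoters shared an unbroken run of 247 bases, whereas the longest shared run of the Hbb-bs and Hbb-bt promoters was 14 bases.

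The coding sequences of each globin pair are nearly identical, which limits how far reads can be assigned within a pair. On GRCm38 (GENCODE M21), Hba-a1 lies at chr11:32283511-32284465 and Hba-a2 at chr11:32296489-32297298, both on the plus strand. Hbb-bs lies at chr7:103826534-103828096 and Hbb-bt at chr7:103812524-103813996, both on the minus strand, and Alas2 at chrX:150547375-150570638 on the plus strand. The coding sequences of Hba-a1 and Hba-a2 (429 bases) differ at 1 position, and those of Hbb-bs and Hbb-bt (444 bases) also differ at 1 position. The predicted proteins of each pair, of 142 and 147 residues, are identical. Of all 31-base words in its transcript, 71.4% for Hba-a1, 91% for Hba-a2, 66.9% for Hbb-bs and 59.4% for Hbb-bt also occur in another gene, against 0% for Alas2. Values of single globin genes are therefore uncertain within a pair. The alpha genes summed to 361 to 869 CPM in control naive, 48.7 to 253 in control treated, 206 to 464 in the Sox2Hi naive group and 15 to 41.1 in Sox2Hi treated libraries. The beta genes summed to 148 to 321, 15.9 to 106, 81.7 to 184 and 6.93 to 17 CPM in the same order.

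Globin reads were found in every library, and the share they took of all counts varied 67.7-fold. In the control naive libraries 1, 2 and 3 the 4 globin genes together took 0.0626%, 0.166% and 0.0678% of counts. In the control treated libraries 1 and 2 the share was 0.0226% and 0.0038%. In the Sox2Hi naive libraries it was 0.0499%, 0.0307% and 0.0693%. In the Sox2Hi treated libraries it was 0.00245% and 0.00538%. By this share every naive library lay above every treated library, and the 2 Sox2Hi treated libraries and control treated library 2 were the 3 lowest. The mean share was 7.47-fold higher in control naive than in control treated libraries and 12.8-fold higher in Sox2Hi naive than in Sox2Hi treated libraries. Within a group, the highest share exceeded the lowest 2.65-fold in control naive, 5.95-fold in control treated and 2.26-fold in Sox2Hi naive libraries.

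Hba-a2 had the highest level of the set per length of transcript, with a mean of 308 CPM per kb of exon over the 10 libraries. Its levels were 241, 611 and 286 CPM in control naive, 173 and 32.3 in control treated, 220, 141 and 312 in the Sox2Hi naive group and 8.45 and 30.0 in Sox2Hi treated libraries. The treated libraries of each graft lay below its naive libraries without overlap, and control treated library 1 lay above Sox2Hi naive library 2. How many of all genes separate as fully with 2 against 3 libraries was not counted, so the separation is not read as particular to these genes. The other alpha gene, Hba-a1, had a mean of 115 CPM per kb. It measured 121, 258 and 121 CPM in control naive, 80.1 and 16.4 in control treated, 105, 65.3 and 152 in the Sox2Hi naive group and 6.54 and 11.1 in Sox2Hi treated libraries. The order of the libraries was close to that of Hba-a2.

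Hbb-bs, the more abundant of the beta genes here, had a mean of 145 CPM per kb. Its levels were 142, 306 and 149 CPM in control naive, 97.9 and 15.5 in control treated, 130, 78.2 and 173 in the Sox2Hi naive group and 6.38 and 16.3 in Sox2Hi treated libraries. Groups of 1 graft again did not overlap between naive and treated, with the same limit as for Hba-a2. Hbb-bt, its neighbour in the cluster, was lower, with a mean of 8.55 CPM per kb. It gave 126, 284 and 190 reads in control naive, 93 and 6 in control treated, 117, 60 and 193 in the Sox2Hi naive group and 10 and 12 in Sox2Hi treated libraries. Its treated libraries other than control treated 1 held too few reads to rank among themselves.

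Alas2 was near the limit of what the libraries can resolve. Its counts were 25, 28 and 33 in control naive, 12 and 1 in control treated, 19, 6 and 14 in the Sox2Hi naive group and 6 and 4 in Sox2Hi treated libraries, with a mean level of 0.336 CPM per kb. The reads that a silent gene of its exon length would gather were estimated from the median rate of 1464 olfactory and vomeronasal receptor genes, which neutrophils do not express. That rate gave 17.0, 21.3 and 15.8 expected reads for Alas2 in control naive, 6.04 and 6.69 in control treated, 13.2, 10.8 and 11.5 in the Sox2Hi naive group and 14.6 and 13.3 in Sox2Hi treated libraries. Alas2 thus exceeded the silent-gene rate in the control naive libraries and in some others, and lay under it in both Sox2Hi treated libraries. Summed over the 10 libraries, the expected background equalled 88% of the 148 Alas2 reads, against 0.255% for Hba-a1, 0.0952% for Hba-a2, 0.202% for Hbb-bs and 3.49% for Hbb-bt.

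**Figure D1:**
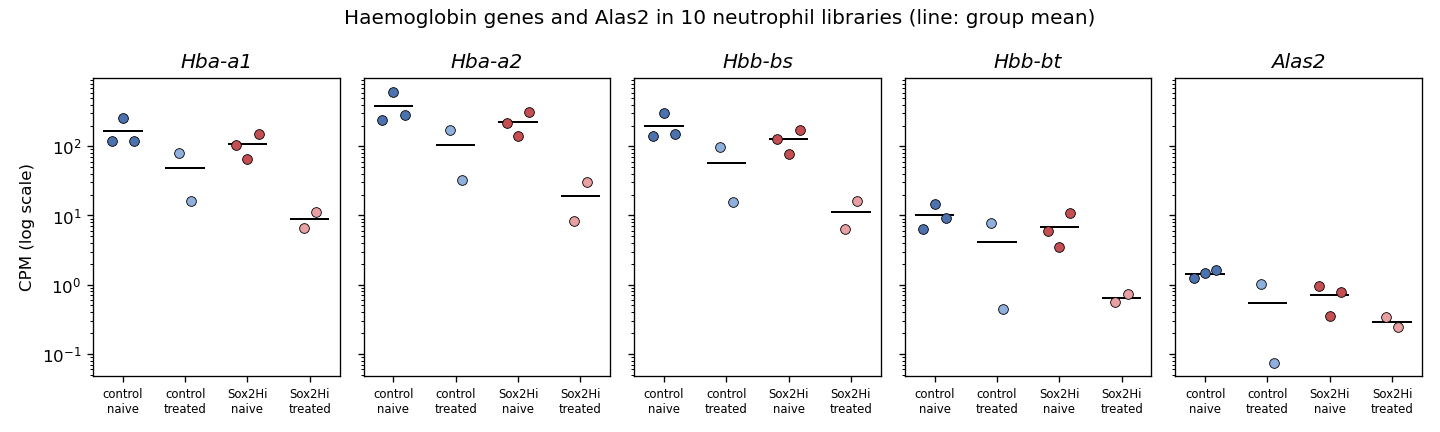
CPM on a log axis for each of the 5 genes, with 1 point per library and a line at the group mean (n = 3, 2, 3 and 2). The 2 Sox2Hi treated points are lowest for Hba-a1 and Hba-a2, and the 2 control treated points are far apart for every gene (80.1 and 16.4 CPM for Hba-a1).

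The makeup of the globin reads changed far less than their amount. Alpha genes took 70.9%, 73% and 72% of globin reads in control naive, 70.6% and 75.4% in control treated, 70.6%, 71.6% and 71.6% in the Sox2Hi naive group and 68.4% and 70.8% in Sox2Hi treated libraries. The widest exact binomial interval (95%, counting error only) was 63.5% to 72.9%, in Sox2Hi treated library 1 with 392 globin reads. Hba-a2 took 66.3% to 70.3% of alpha reads in 8 libraries, 56.3% (interval 50.2% to 62.4%) in Sox2Hi treated library 1 and 73.1% (69.6% to 76.4%) in Sox2Hi treated library 2. These 2 libraries of 1 group thus lay on either side of the rest, and the shared sequence limits the split. Hbb-bt took 4.25%, 4.6% and 5.87% of beta reads in control naive, 7.39% and 2.79% in control treated, 4.36%, 4.27% and 5.88% in the Sox2Hi naive group and 8.06% and 4.27% in Sox2Hi treated libraries. Its intervals in the treated libraries were wide, from 3.94% to 14.3% in Sox2Hi treated library 1.

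The number of Alas2 reads was set beside that of the globins. There were 1.21 to 2.85 Alas2 reads per 1000 globin reads in the 6 naive libraries and 2.8 and 1.14 in the control treated ones. In the Sox2Hi treated libraries there were 15.3 (interval 5.64 to 33) and 4.16 (1.14 to 10.6), from 6 and 4 reads that do not exceed the silent-gene rate. Across the 10 libraries, log2 levels of the globin genes correlated pairwise with Pearson's r between 0.952 and 0.996, and with Alas2 between 0.811 and 0.892. These correlations are descriptions over libraries that share depth, groups and, within each gene pair, sequence.

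**Figure D2:**
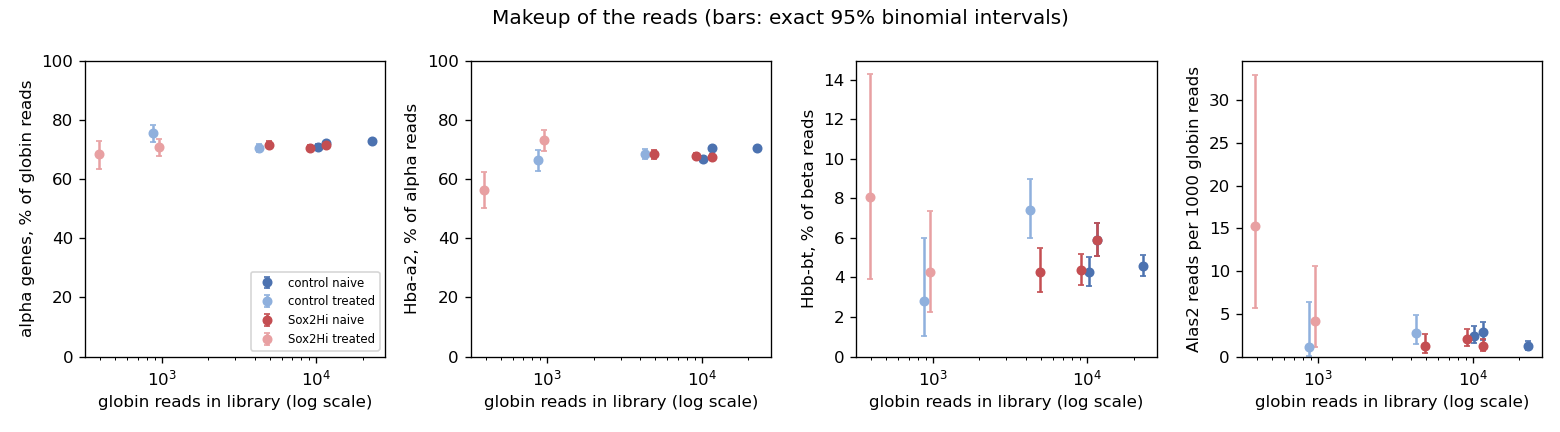
Makeup of globin reads in each library against its number of globin reads (log axis), with exact 95% binomial intervals: alpha genes among globin reads, Hba-a2 among alpha reads, Hbb-bt among beta reads, and Alas2 per 1000 globin reads. The alpha percentage stays between 68.4 and 75.4 while globin reads range from 392 to 22884.

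In control tumours, treated libraries had lower globin levels than naive ones. The log2 fold difference was -1.79 ± 0.602 (SE, 2 against 3 libraries) for Hba-a1, -1.89 ± 0.709 for Hba-a2, -1.82 ± 0.677 for Hbb-bs, -1.32 ± 0.754 for Hbb-bt and -1.46 ± 0.642 for Alas2. Under expressed-gene scaling these were -2.35, -2.45, -2.37, -1.86 and -1.98. The median over all tested genes was -0.30 under all-gene and -0.85 under expressed-gene scaling, so each gene of the set lay below both. At an adjusted p under 0.05 (edgeR's quasi-likelihood test over all tested genes), 1 of 5 was called lower, Hba-a1, against 15.3% of all genes called lower and 18.7% called higher. Under expressed-gene scaling it was 4 of 5, against 43.9% lower and 10.7% higher over all genes. Among these 4 was Alas2, whose expected background equalled 88% of its reads. The count was 0 with the title numbers as a replicate block and 3 with the description's numbers. It depends on the control treated pair: it was 5 without control treated library 1, and 0 without control treated library 2, control naive library 2, Sox2Hi naive library 1 or either Sox2Hi treated library. Without control treated library 1 the fold of Hbb-bt was -4.47 and that of Alas2 -4.14. Over all alternatives run, the fold ran from -3.32 to -1.03 for Hba-a1, -3.53 to -1.1 for Hba-a2 and -3.66 to -0.997 for Hbb-bs.

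In Sox2Hi tumours the treated libraries again had lower globin levels. The log2 fold difference between treated and naive libraries was -3.61 ± 0.67 for Hba-a1, -3.55 ± 0.778 for Hba-a2, -3.49 ± 0.746 for Hbb-bs and -3.38 ± 0.926 for Hbb-bt, but -1.26 ± 0.71 for Alas2. Expressed-gene scaling gave -3.33, -3.27, -3.22, -3.10 and -0.996. All-gene medians were 0.07 and 0.34 under the 2 scalings. Hba-a1, Hba-a2 and Hbb-bs were called lower, 3 of 5 under each scaling, beside 1.82% of all genes called lower and 1.79% higher (1.45% and 4.86% under expressed-gene scaling). Since the set was chosen from this contrast, nothing is read from that count. It was 1, Hba-a1, with the title numbers as a replicate block, and 1 without control naive library 1 or Sox2Hi naive library 1, and 0 without Sox2Hi naive library 3 or either Sox2Hi treated library. The 1070 calls over all genes also fell without single libraries, to 82 without Sox2Hi treated library 2, 394 without Sox2Hi treated library 1, 172, 390 and 601 without Sox2Hi naive library 3, 2 and 1, and 486 without control naive library 1, and rose to 2492 and 1696 without control naive library 2 and 3. DESeq2 gave 3353. Over all alternatives run, the fold ran from -4.05 to -3.26 for Hba-a1, by which the set was chosen, and from -4.75 to -2.88 for Hba-a2. It ran from -4.33 to -2.95 for Hbb-bs, -3.7 to -2.87 for Hbb-bt and -1.57 to -0.955 for Alas2.

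Between naive libraries of the 2 grafts, the globin differences were near the size of their SE under all-gene scaling and larger under expressed-gene scaling. The log2 difference of Sox2Hi against control was -0.64 ± 0.504 for Hba-a1, -0.76 ± 0.593 for Hba-a2, -0.65 ± 0.566 for Hbb-bs, -0.59 ± 0.622 for Hbb-bt and -1.03 ± 0.50 for Alas2. Expressed-gene scaling gave -1.06 ± 0.516, -1.19 ± 0.601, -1.07 ± 0.575, -0.999 ± 0.625 and -1.39 ± 0.523. None of the 5 was called under either scaling, while 0.209% of all genes were called lower and 1.66% higher (12.3% and 0.931% under expressed-gene scaling). These 554 calls over all genes fell to between 3 and 11 without control naive library 1 or 2 or any 1 Sox2Hi naive library, to 43 and 17 without Sox2Hi treated library 1 or 2, and rose to 2166 without control naive library 3. With the replicate numbers as a block they were 2282, or 3841 in the naive libraries alone, and DESeq2 gave 4114. The globin levels of the 2 naive groups overlapped, whereas Alas2 was lower in each Sox2Hi naive library (0.349 to 0.96 CPM) than in each control naive library (1.25 to 1.62 CPM), as was the background expected of Alas2. How many of all genes separate these groups as fully was not counted. At an unadjusted p under 0.05, edgeR counted 0 of the 5 (1 under expressed-gene scaling), and DESeq2 and voom called 0.

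Among treated libraries, the estimates for Sox2Hi lay below control, on 2 libraries a group that are far apart in the control arm. The log2 difference was -2.45 ± 0.666 for Hba-a1, -2.42 ± 0.771 for Hba-a2, -2.32 ± 0.742 for Hbb-bs, -2.65 ± 0.998 for Hbb-bt and -0.83 ± 0.841 for Alas2. Expressed-gene scaling gave -2.04, -2.01, -1.92, -2.24 and -0.41. Only Hba-a1 was called by edgeR, and none under expressed-gene scaling (4 at an unadjusted p under 0.05). Over all genes 9.57% were called lower and 4.18% higher, or 2.36% and 15.8% under expressed-gene scaling. The groups overlapped for some genes. Hba-a1 in control treated library 2 (16.4 CPM) lay above Sox2Hi treated library 2 (11.1 CPM), but Hbb-bs was 15.5 against 16.3 CPM in these libraries. For Hbb-bt and Alas2, the reads of control treated library 2 and of both Sox2Hi treated libraries were too few to rank. Over all genes, the 4076 calls fell to 66 without Sox2Hi treated library 1, 1539 without Sox2Hi treated library 2, 1445 and 2406 without control treated library 2 and 1, and 2714 without control naive library 1. Without control treated library 1 the fold of Hba-a1 was -0.91, those of Hbb-bt and Alas2 turned to 0.51 and 1.87, and none was called. The count was 4 without control treated library 2, 3 without control naive library 2, and 0 without either Sox2Hi treated library or with the replicate block.

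The difference between grafts in the response to treatment was tested as an interaction. Its log2 value was -1.82 ± 0.818 for Hba-a1, -1.66 ± 0.949 for Hba-a2, -1.68 ± 0.915 for Hbb-bs, -2.07 ± 1.18 for Hbb-bt and 0.19 ± 1.04 for Alas2. None was called by edgeR (1 at an unadjusted p under 0.05, and 0 with DESeq2 or voom), beside 16.2% of all genes called lower and 11.3% higher. Under expressed-gene scaling the values were -0.98, -0.83, -0.84, -1.24 and 0.98, again with none called, against 1.98% lower and 34.9% higher. A larger response of the globins in Sox2Hi tumours was thus not resolved. Without control treated library 2 there were 3 calls, with Hba-a1 at -2.59, and without control treated library 1 Hbb-bs turned to 0.16 and Hbb-bt to 1.07.

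**Figure D3:**
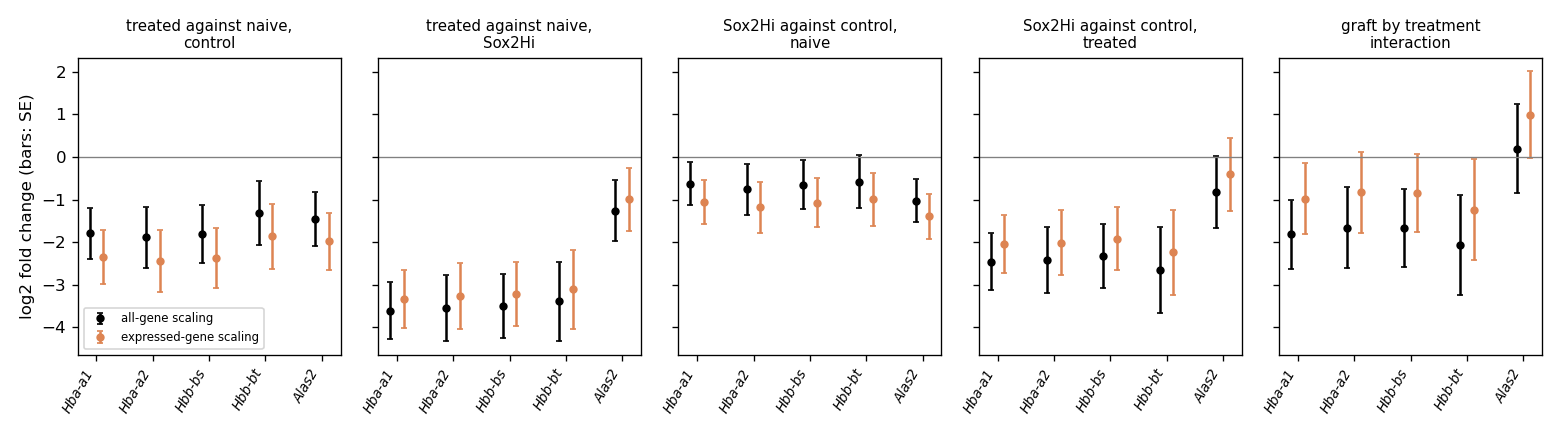
Log2 fold change with its SE for the 5 genes in the 4 comparisons and the interaction, under all-gene (black) and expressed-gene (orange) scaling. The 4 globin genes sit together in each panel, near -3.5 in Sox2Hi tumours under all-gene scaling, and Alas2 sits apart in the Sox2Hi treatment, treated graft and interaction panels.

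Other genes of red cells were compared from lists of other globins, haem synthesis, red cell membrane and skeleton, erythroid transcription factors and red cell soluble proteins. These lists name 56 genes, of which 55 had a row and 46 were tested. Ahsp, the alpha chain chaperone, is not analysed here. The embryonic and theta globins Hba-x, Hbq1a, Hbq1b, Hbb-y, Hbb-bh1 and Hbb-bh2 had 0 to 10 reads in any library, and none was tested. Their reads summed over libraries were 0.543 to 0.992 of the silent-gene expectation.

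Several genes that mark red cell precursors, named after their values were seen, lay around the silent-gene rate. Slc4a1 (the band 3 anion exchanger) had 4 to 34 reads per library, and its summed reads were 0.687 times the expectation. The factors Gata1, Klf1 and Tal1 reached 0.999, 1.09 and 0.853 times it, and the erythropoietin receptor gene Epor 0.52 times. Single libraries ranged from 0.295 to 2.09 times for Gata1 and from 0.26 to 2.03 for Klf1. Other genes of the same lists exceeded the expectation in every library: the membrane genes Epb42 (2.45 times over all libraries, 2 to 2.73 in single ones), Ermap (3.49) and Dmtn (2.9), and the factor genes Gfi1b (3.68) and Nfe2 (23.9). In all, the expected background was at least 50% of the reads in 28 of the 55 genes, and under 50% in 27. Hba-a1, Hba-a2 and Hbb-bs were at 392, 1051 and 494 times the expectation.

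**Figure D4:**
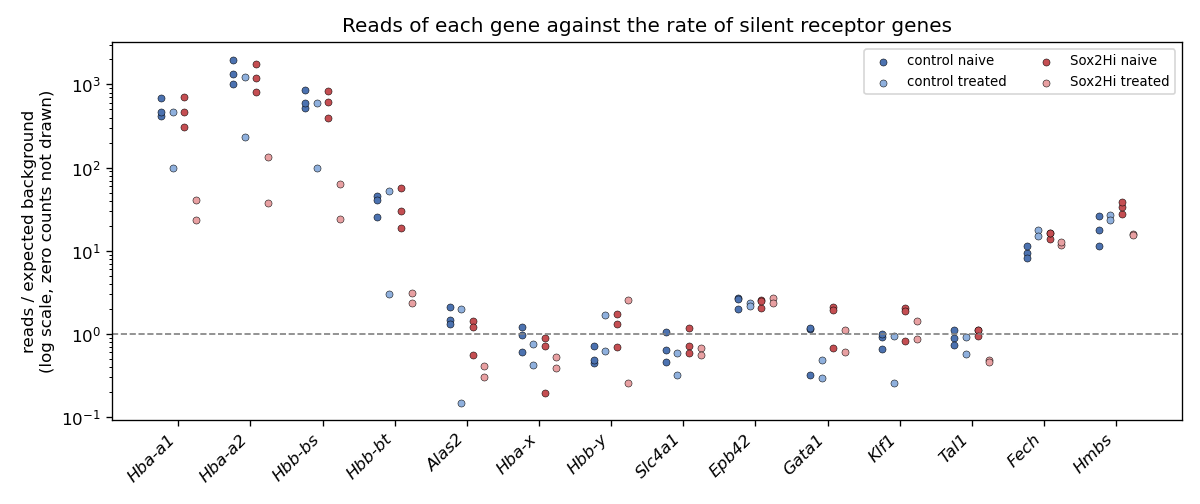
Reads divided by the reads expected of a silent gene of the same exon length (log axis, dashed line at 1), with 1 point per library, for the 5 genes, 2 embryonic globins, defining red cell genes and 2 haem enzymes. Hba-a1, Hba-a2 and Hbb-bs are 23.7 to 1992 times the expectation, while Alas2, Slc4a1, Gata1, Klf1 and Tal1 lie around 1.

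On treatment in control tumours, calls in the erythroid lists went both ways, at shares near those of all genes. Of 46 tested genes 10 were higher and 9 lower under all-gene scaling, with a median of -0.28 against -0.30 over all genes, of which 18.7% were called higher and 15.3% lower. Of 15 tested membrane and skeleton genes 1 was higher and 5 lower (median -0.66), and of 6 factor genes 1 was higher and 2 lower (median -1.24). Of the 9 lower genes, 7 had an expected background of at least 50% of their reads, including Slc4a1 (-1.42 ± 0.444) and the erythroid RING finger gene Trim10 (-1.75 ± 0.464). The 10 higher genes were all under 50%. The silent-gene rate, in unscaled reads, was 6.56 to 8.85 per kb in control naive and 2.51 to 2.78 in control treated libraries. Since the folds are TMM-scaled, the size of this drop cannot be set beside them, and its part in them was not tested. After this background was subtracted from each gene, an alternative added after seeing the data, 7 were called higher and 6 lower. Over all genes that fit called 3283 higher and 3347 lower of 21439 tested. Under expressed-gene scaling the split was 7 higher and 22 lower, beside 10.7% and 43.9% of all genes. Without control treated library 2 the count of calls was 8 of 46 in place of 19.

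The genes that rose under all-gene scaling were Alas1, Bnip3l, Car2, Epb41, Mkrn1, Nfe2, Slc25a37, Slc25a38, Tent5c and Tmem14c. Alas1, the housekeeping counterpart of Alas2, rose from 35.5 ± 4.4 CPM (SD, n = 3) in control naive to 222 ± 61 (n = 2) in control treated libraries, a log2 fold of 2.64 ± 0.206 (adjusted p = 8.67e-06, edgeR). The mitochondrial iron importer Slc25a37 rose by 2.32 ± 0.192 (adjusted p = 1.08e-05, edgeR) and the mitochondrial glycine carrier Slc25a38 by 1.61 ± 0.22. The factor gene Nfe2 rose by 2.198 ± 0.251, the ubiquitin ligase gene Mkrn1 by 2.22 ± 0.262 and the mitophagy receptor gene Bnip3l by 1.51 ± 0.192. Each of these 6 genes was also called higher under expressed-gene scaling, with folds of 2.09, 1.77, 1.07, 1.65, 1.67 and 0.97, as was Tent5c (0.70). Car2, Epb41 and Tmem14c lost their call there, with log2 folds of 0.34, 0.15 and 0.40 in place of 0.91, 0.72 and 0.94.

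In Sox2Hi tumours none of the 46 was called on treatment by edgeR under all-gene scaling, where 11 had an unadjusted p under 0.05 and DESeq2 and voom each called 3, and Slc25a37 alone under expressed-gene scaling (0.73 ± 0.166). By edgeR few genes were called in this comparison at all, 1.82% lower and 1.79% higher (1.45% and 4.86% under expressed-gene scaling). DESeq2 called 3353 of 12961 genes there and voom 2676 of 29648. Alas1 measured 68.8 ± 8.6 CPM in naive and 99 ± 7.6 in treated Sox2Hi libraries (log2 0.53 ± 0.203). The interaction was called for Alas1 (-2.12 ± 0.293, adjusted p = 0.00465, edgeR), Slc25a37 (-1.86 ± 0.274), Mkrn1 (-2.02 ± 0.376), Nfe2 (-1.87 ± 0.361), Bnip3l (-1.53 ± 0.277) and Slc25a38 (-1.78 ± 0.315), and for 14 of the 46 genes in all, 6 higher and 8 lower. Over all genes 11.3% were called higher and 16.2% lower. Expressed-gene scaling turned the balance to 15 higher and 5 lower, beside 34.9% and 1.98% of all genes. With background subtracted 5 were called, beside 1520 higher and 214 lower of 21439 genes tested in that fit. Without Sox2Hi treated library 1 the count was 7 and without control treated library 2 it was 8.

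Between grafts, 4 of 46 were higher and none lower in naive Sox2Hi libraries: Alas1 (0.95 ± 0.186), Slc25a38 (0.94 ± 0.202), Mkrn1 (1.15 ± 0.239) and the catalase gene Cat (1.34 ± 0.238). Over all genes 1.66% were called higher and 0.209% lower. Expressed-gene scaling turned the balance to 2 higher and 9 lower, beside 0.931% and 12.3% of all genes. With the replicate numbers as a block 5 of 46 were called, all higher, and in the naive libraries alone with that block 11 of 43, 6 higher and 5 lower. The count was 0 without any single one of control naive library 1 or 2, Sox2Hi naive library 1, 2 or 3 or Sox2Hi treated library 2, and 1 without Sox2Hi treated library 1. In treated libraries 6 were lower in Sox2Hi and none higher, Alas1, Bnip3l, Nfe2, Slc25a37, Slc25a38 and Tmem14c, where 9.57% of all genes were called lower and 4.18% higher. Of 12 tested neutrophil markers, 8 were lower there (median -1.169) and 0 higher, or 4 and 0 under expressed-gene scaling. Of the 46 erythroid-list genes, 10 were higher and 2 lower under expressed-gene scaling, beside 15.8% and 2.36% of all genes. Under all-gene scaling the count was 0 without Sox2Hi treated library 1, and 2 or 3 without control treated library 1 or 2.

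In control tumours, 5 of 8 genes for haemoglobin and haem clearance and 4 of 7 genes for iron uptake and storage were called higher on treatment and none lower, beside 18.7% of all genes called higher and 15.3% lower. Hmox1, which opens the haem ring, rose from 18.8 ± 0.82 CPM in control naive to 192 ± 8.8 in control treated libraries (log2 3.35 ± 0.341, adjusted p = 3.15e-05, edgeR; 2.81 under expressed-gene scaling). Hp, which encodes the haemoglobin-binding protein haptoglobin and is also stored in neutrophil granules, rose from 118 ± 19 to 714 ± 154 CPM (log2 2.60 ± 0.228). The iron exporter Slc40a1 rose by 2.39 ± 0.285, the ferritin genes Fth1 and Ftl1 by 2.48 ± 0.246 and 2.16 ± 0.208, the transferrin receptor gene Tfrc by 1.16 ± 0.187 and the biliverdin reductase gene Blvrb by 1.99 ± 0.263. Under expressed-gene scaling 3 clearance and 4 iron genes were higher, and 2 and 1 lower, where 10.7% of all genes were higher and 43.9% lower.

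In Sox2Hi tumours 1 of the 8 clearance genes rose, Hp, from 157 ± 37 to 310 ± 19 CPM (log2 0.98 ± 0.224, adjusted p = 0.0383, edgeR; 1.24 under expressed-gene scaling), and none of the 7 iron genes was called (2 at an unadjusted p under 0.05). Over all genes 1.79% were called higher and 1.82% lower. Expressed-gene scaling called 3 clearance genes and 1 iron gene higher there, against 4.86% of all genes, with Hmox1 at 1.36 ± 0.324 and Fth1 at 1.09 ± 0.259. Cd163, the macrophage receptor for haemoglobin, had 22 to 64 reads and Hpx, the haem carrier haemopexin, 4 to 22 reads per library. The backgrounds expected of Cd163 and Hpx were 65.1% and 69.9% of their reads.

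Markers of other cells were set beside the globins. Of 12 tested neutrophil markers, 11 rose on treatment in control tumours (median 3.05) and 6 in Sox2Hi tumours (median 1.31), opposite in direction to the globins. Of all genes, 18.7% were called higher and 15.3% lower in control tumours, and 1.79% and 1.82% in Sox2Hi tumours. Of platelet and megakaryocyte genes, 1 of 9 tested was higher and none lower in control tumours on treatment, and none was called in Sox2Hi tumours (2 at an unadjusted p under 0.05). Under expressed-gene scaling 2 were lower in control tumours and 1 higher in Sox2Hi tumours. In 7 of the 10 platelet genes the expected background was at least 50% of the reads, which limits what their levels can show. The 10 genes summed to 34.1 to 73.1 CPM in control naive, 42.1 to 52 in control treated, 38.7 to 55.2 in the Sox2Hi naive group and 41.2 to 42.5 in Sox2Hi treated libraries. Pf4 (platelet factor 4) was 20 ± 12, 20.2 ± 8.1, 29.1 ± 10 and 21.6 ± 11 CPM in the same order.

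Mast cell genes ranged from 29.6 to 202 CPM in control naive, 11.3 to 35.5 in control treated, 57.8 to 97.5 in the Sox2Hi naive group and 28.4 to 60.8 in Sox2Hi treated libraries, with 4 of 8 lower in control tumours on treatment, beside 15.3% of all genes (7 of 8 and 43.9% under expressed-gene scaling). The mast and progenitor cell receptor gene Kit was called higher in both grafts (1.11 in control and 1.47 in Sox2Hi tumours) and no other mast cell gene was. Under expressed-gene scaling Kit lost its call in control tumours (0.57 ± 0.233) and kept it in Sox2Hi tumours (1.74 ± 0.234). Endothelial genes were 37.8 to 46.1, 37.9 to 49.6, 41.6 to 45.5 and 40.1 to 40.4 CPM, with 3 of 6 lower in control tumours (5 of 6 under expressed-gene scaling). In 4 of these 6 genes the expected background was at least 50% of the reads. Keratinocyte genes were 426 to 1564, 521 to 1049, 748 to 968 and 470 to 689 CPM, and macrophage genes 592 to 755, 637 to 1130, 1066 to 1429 and 578 to 1252 CPM, with 4 of 8 macrophage genes called higher in control tumours on treatment (1 higher and 1 lower under expressed-gene scaling). B and plasma cell genes summed to 56.6 to 101 CPM in control naive, 45.9 to 156 in control treated, 155 to 758 in the Sox2Hi naive group and 24.6 to 105 in Sox2Hi treated libraries. Their treated Sox2Hi libraries lay below the naive ones, of which library 2 had the 758 CPM and the others 155 and 192, and the median log2 fold over 6 genes was -2.08. No single gene passed the threshold, with adjusted p from 0.123 to 0.362 (edgeR). Among these markers Elane, an early neutrophil granule gene, and Gp9, a platelet receptor gene, were at 0 in Sox2Hi treated library 2 and the plasma cell gene Mzb1 in control treated library 1. The part of the neutrophil and other marker genes in the globin differences was not tested.

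Under all-gene scaling, the genes whose log2 levels followed the summed set most closely over the 10 libraries were Fam78b (Pearson's r 0.917), Zgrf1 (0.901), Tmem74 (0.896), Smarcal1 (0.892) and Ndst3 (0.888), of 16145 genes ranked. Under expressed-gene scaling their r was 0.841, 0.817, 0.771, 0.826 and 0.867, so their order depends on the scaling. Their own ranges were narrow and low, 0.615 to 1.52 CPM for Fam78b and 3.64 to 7.02 CPM for Zgrf1. The summed set itself spanned 22.3 to 1192 CPM.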

How the data were processed

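RNA of sorted neutrophils was sequenced as 10 libraries made with a low-input kit, per the labels' protocols. The authors deposited 1 table of estimated counts per gene, whole numbers that were not normalized. Kallisto 0.44.0 and mm10 are named per the submitters' processing notes, without a role, and strandedness is not given in the sources used here. Gene IDs were matched to GENCODE M21, where 55144 of 55385 had a symbol. A further 96 rows (spike-ins and transgenes) held 0.000992% to 0.00277% of counts and were left out.

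The values were rounded as deposited and fitted with edgeR 4.0.16 (R 4.3.3): filterByExpr, TMM, 1 model of 4 groups over all libraries, quasi-likelihood tests and Benjamini-Hochberg adjustment over 29648 genes, with calls at 0.05. The biological coefficient of variation was 0.232. CPM in correlations had a pseudocount of 1. Intervals and silent-gene rates cover counting error only. Alternatives used DESeq2 1.42.0, limma 3.58.1, other scalings and filters, replicate blocks, paralog sums and left-out libraries.

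The members and lists were chosen with earlier results of these data known. Genes named outside the 5 members were called in at least 1 comparison, are defining genes of a list, or, for likeness, are the 5 highest correlations among genes averaging 1 CPM or more. Defining genes without a call, such as Gata1, Klf1, Epor and Pf4, were named after their values were seen. Some list genes are counted but not reported singly here. Replicate pairs differed beyond sampling noise (smallest chi-square per degree of freedom 12.5). Same-numbered naive libraries of the 2 grafts had deviations with r of 0.215, 0.258 and 0.33, and treated ones -0.087. Between naive and treated libraries of the same number, r ran from -0.236 to 0.203. Differently numbered libraries were not compared, so these values cannot show whether the numbers pair libraries. The title numbers were tried as a block, and the main model has no block.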

Additional observations from a re-analysis of the deposited data

Results flagged for a closer look

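The responses of 22 genes named here of the erythroid, iron and clearance lists to treatment differed between the 2 grafts by the interaction term (edgeR, adjusted p under 0.05, all-gene scaling). In all, 14 of 46 tested erythroid-list genes, 4 of 7 iron genes and 5 of 8 clearance genes were called, beside 16.2% of all genes called lower and 11.3% higher. For the erythroid lists this is near the share of all genes. With background subtracted, 5 erythroid-list genes were called, beside 1734 of 21439 genes. Of 12 tested neutrophil markers, 8 were lower (median -1.675), and 0 under expressed-gene scaling (median -0.848). The erythroid-list calls were 6 higher and 8 lower, and under expressed-gene scaling 15 higher and 5 lower, beside 34.9% and 1.98% of all genes. None of the 4 haemoglobin genes or Alas2 was among them. Negative log2 values mean a lower response in Sox2Hi tumours. In haem synthesis the values were -2.12 for Alas1, -0.92 for Urod, -1.78 for Slc25a38, -1.86 for Slc25a37 and -1.07 for Tmem14c. Among red cell soluble proteins and factors they were -1.87 for Nfe2, -1.53 for Bnip3l and -2.02 for Mkrn1. In the iron list they were -1.51 for Tfrc, -1.65 for Fth1, -1.83 for Ftl1 and -1.73 for Slc40a1. In the clearance list they were -1.62 for Hp, -2.26 for Hmox1, -0.99 for Blvra, -1.24 for Blvrb and -1.38 for Slc48a1.

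Positive values were 1.41 for Epb42, 1.24 for Ermap, 0.87 for Add2, 1.89 for Zfpm1 and 2.197 for Trim10, of which Add2, Zfpm1 and Trim10 had an expected background of at least 50% of their reads. Under expressed-gene scaling Urod, Tmem14c, Nfe2, Fth1, Slc40a1, Hp, Blvra, Blvrb and Slc48a1 were no longer called, at -0.11, -0.25, -1.06, -0.82, -0.91, -0.80, -0.17, -0.44 and -0.55, and the others kept their sign and their call.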

How the results depend on the processing

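With 2 or 3 libraries a group, calls on the 5 genes depended on single libraries and on the scaling, while the globin folds on treatment kept their sign in all alternatives run. Members called on treatment in control tumours (1) numbered 0 with DESeq2, RLE factors, the 2 groups alone or paralogs summed, 2 with voom, 3 with a Ddx3y covariate or background subtracted, 4 with expressed-gene scaling and 5 with library totals, and 0 to 5 with a library left out. In Sox2Hi tumours (3) leaving out a library gave 0 to 4. For treated grafts (1) the count was 4 with DESeq2, 3 with RLE factors, the Ddx3y covariate or no filter, 2 with paralogs summed (the 1 call of the alpha sum, counted for Hba-a1 and Hba-a2), 0 with expressed-gene scaling, voom, the 2 groups alone or background subtracted, and 0 to 4 with a library left out. For the interaction (0) it was 0 to 3 with a library left out. Naive grafts gave 0 throughout. Over all genes, library totals called 20148 of 29648 lower and 1492 higher on treatment in control tumours. Between treated grafts DESeq2 called 4907 of 18698 genes lower and 596 higher.

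With the replicate number of the titles as a block, members called were 0 in control tumours, 1 in Sox2Hi tumours and 0 for treated grafts. With the description's number as a block they were 3 in control tumours and 0 for treated grafts. Naive libraries alone, with the replicate block, gave 11 erythroid-list calls between grafts. The block moved no other count of members or erythroid-list genes by over 1.5 times. Calls over all genes between naive grafts (554) became 2282 with the title number, 3841 in naive libraries alone and 301 with the description's number. DESeq2 called 4114 of 12961 genes there and voom 5570 of 29648. Library totals called 21640 of 29648 genes on treatment in control tumours and 10991 between treated grafts. With background subtracted, of 21439 genes, 535 were called between naive grafts, 745 between treated grafts and 1734 for the interaction. Calls over all genes on treatment in control tumours fell from 10078 to 6004 without control treated library 2, and interaction calls from 8149 to 3969, 4787 and 5385 without Sox2Hi treated library 1, Sox2Hi treated library 2 and control treated library 2.

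Erythroid-list calls in control tumours (19) were 12 with DESeq2, 39 with library totals and 29 with expressed-gene scaling, and 8 to 19 with a library left out. In Sox2Hi tumours (0) they were 3 with DESeq2, voom or the 2 groups alone, 2 with library totals, 1 with expressed-gene scaling or background subtracted, and 0 to 3 with a library left out. For naive grafts (4) they were 8 with DESeq2, 13 with voom, 11 with expressed-gene scaling, 2 with the Ddx3y covariate, 1 with background subtracted, 0 with library totals or the 2 groups alone, and 0 to 6 with a library left out. For treated grafts (6) they were 19 with library totals, 12 with expressed-gene scaling, 1 with background subtracted, 0 with the 2 groups alone, and 0 to 7 with a library left out. For the interaction (14) they were 5 with background subtracted and 7 to 16 with a library left out.

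The Alas2 interaction changed sign to -0.052 with DESeq2, -0.0199 with RLE factors, -0.0122 with no filter, and -0.784, -0.117 and -0.119 without control treated library 2, Sox2Hi naive library 2 or Sox2Hi treated library 1. Without control treated library 1, the treated graft difference turned to 0.513 for Hbb-bt and 1.87 for Alas2, and the interaction to 0.161 for Hbb-bs and 1.07 for Hbb-bt. With a library left out the treated graft difference ranged from -3.61 to 0.513 for Hbb-bt and -1.79 to 1.87 for Alas2, and the interaction from -2.54 to 0.161 for Hbb-bs, -3.05 to 1.07 for Hbb-bt and -0.784 to 2.87 for Alas2. The cause was not tested. Where a treated group keeps 1 library, that library is assumed to vary like the others.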
